A study of Homo sapiens with 27 samples.

Results

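The genes described here are PTPRK and 8 other receptor-type tyrosine phosphatases (PTPRM, PTPRG, PTPRC, PTPRJ, PTPRA, PTPRE, PTPRF and PTPRS), 9 of the 60619 genes counted. PTPRK was taken because the study names it for knockdown of lnc-RTN4R-1 on these same libraries, so its lowering there is no independent evidence. The other members were taken by family and not for a measured value, though with earlier results of these data known.

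RNA was sequenced from 27 cultures of REH, an established B-cell precursor leukemia line with the ETV6/RUNX1 fusion, 72 h after treatment. LNA GapmeRs were added at 10 µM and taken up passively. They are short antisense oligonucleotides with locked bases at their ends, and RNA paired to them is cut by RNase H. Each of 4 lncRNAs was targeted by 2 GapmeRs. The 5 controls were 2 cultures in medium, which received no oligonucleotide, and 3 given a non-targeting GapmeR (NTC), which has a single sequence. Both GapmeRs against lnc-RTN4R-1, and likewise both against lnc-TIMM21-5, were given to 3 cultures each. GapmeR1 and GapmeR2 against lnc-NKX2-3-1 were given to 2 and 3 cultures, and those against lnc-ASTN1-1 to 3 and 2. All groups come from this 1 cell line, and per the study's methods the replicates were made on different days. Whether equal replicate numbers of different groups share a day is not stated, and libraries are paired here by number. Replicate 3 is missing for medium and for lnc-NKX2-3-1 GapmeR1, and replicate 2 for lnc-ASTN1-1 GapmeR2.

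Libraries held 14627110 to 22750945 counts. Of 12 B-lineage precursor markers, 11 reached at least 1 CPM (the standard scaling of counts to a common library size) in every library, with a summed level of 5193 to 6563 CPM, and VPREB1 had 0 counts in all 27. None of 5 T cell and 4 erythroid markers reached 1 CPM in any library. Of 5 myeloid markers, 2 were at or above 1 CPM in every library, and the list summed to 86.2 to 454 CPM. The part of the myeloid genes in any result was not tested.

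Receptor-type tyrosine phosphatases span the plasma membrane and remove phosphate from tyrosines of signalling proteins, opposing or releasing tyrosine kinases. PTPRK and PTPRM bind their own kind on neighbouring cells through their outer parts. PTPRC, known as CD45, is the abundant phosphatase of leukocytes, where it sets the activity of SRC family kinases.

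GapmeR sequences are shown first because 3 of the 8 GapmeRs went with large changes of a member. They are written 5′ to 3′, as deoxy letters.

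lnc-RTN4R-1 GapmeR1: gcattcatgggttaag

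lnc-RTN4R-1 GapmeR2: tgctgagacatctagg

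lnc-NKX2-3-1 GapmeR1: tgctctgtgcggattg

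lnc-NKX2-3-1 GapmeR2: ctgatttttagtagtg

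The transcribed strand of each gene body (hg38, GENCODE v44) was searched for places that could pair with a GapmeR with at most 3 mismatches and no gap. Both lnc-RTN4R-1 GapmeRs matched LINC02891, the gene of lnc-RTN4R-1, over all 16 bases in an exon. The closest places in the members that changed most are printed on the transcribed strand, with the bases that do not pair with the GapmeR in capitals. All 3 lie in introns.

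PTPRK and lnc-RTN4R-1 GapmeR1, chr6:128048648-128048663, minus strand: cAGaacccatgaatgc

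PTPRM and lnc-RTN4R-1 GapmeR2, chr18:8232996-8233011, plus strand: ActagatgtctcagGa

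PTPRG and lnc-RTN4R-1 GapmeR2, chr3:62050444-62050459, plus strand: cTCTgatgtctcagca

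The PTPRK place had 2 mismatches and 13 paired bases in a row. The PTPRM place also had 2 mismatches and a paired run of 13, and the PTPRG place had 3 mismatches and a run of 12. For lnc-NKX2-3-1 GapmeR1, PTPRM held no place within 3 mismatches, and the best of PTPRG had 3 mismatches with a run of 9. These are matches of letters, and cutting at any of them was not tested.

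The first check was lnc-RTN4R-1 itself (LINC02891), the RNA the GapmeRs were made against. It stood at 19.1 and 24.4 CPM in medium and 18.3, 22.6 and 19.8 CPM with NTC. With lnc-RTN4R-1 GapmeR1 it was at 6.03, 6.43 and 5.08 CPM, and with GapmeR2 at 5.04, 5.61 and 3.40 CPM. Both GapmeRs left it below every control, and their ranges overlapped. In edgeR, the log2 fold change against the controls was -1.83 (SE 0.126, adjusted p-value 5.42e-06) for GapmeR1 and -2.15 (SE 0.158, adjusted p-value 2.02e-06) for GapmeR2. The direct difference, GapmeR1 minus GapmeR2, was 0.32 (interval of 2 SE each way -0.07 to 0.72).

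PTPRK, a phosphatase of cell contacts, fell strongly with GapmeR1 against lnc-RTN4R-1, and not to a like extent with GapmeR2 against the same lncRNA. PTPRK (ENSG00000152894, chromosome 6, 127968785 to 128520616, minus strand) was at 339 and 358 CPM in medium and at 297, 308 and 262 CPM with NTC. With lnc-RTN4R-1 GapmeR1 it was at 120.3, 115 and 101 CPM, far below every control. With lnc-RTN4R-1 GapmeR2 it was at 272, 272 and 219 CPM, so that 2 of its 3 libraries lay within the range of the controls. In mean levels, 35.8% of the control level of PTPRK was left with GapmeR1 and 81.2% with GapmeR2. In RNA from whole cultures, fewer cells of a type and less RNA per cell cannot be told apart.

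**Figure D1:**
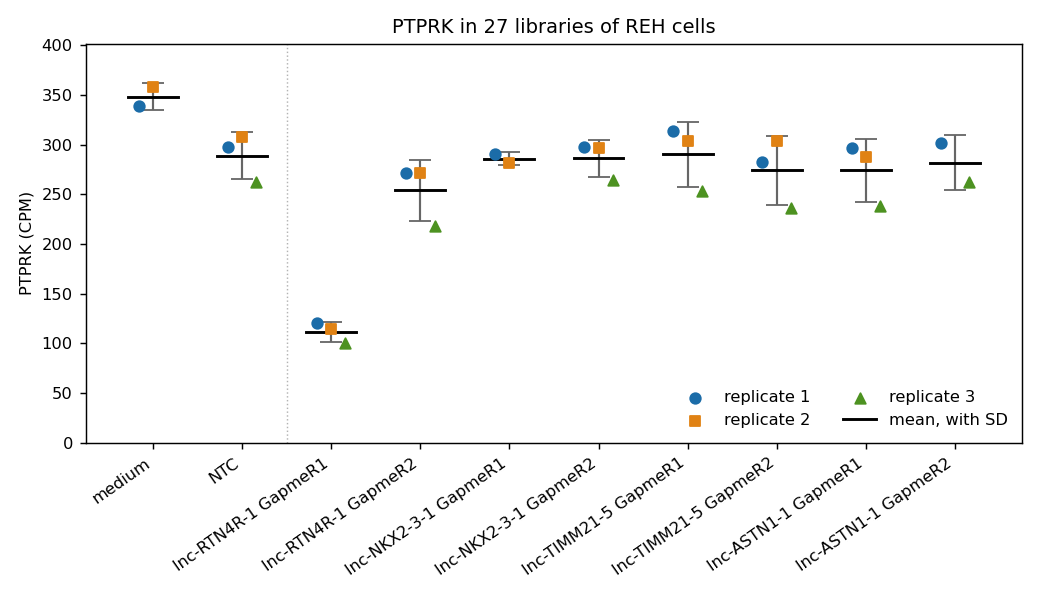
Level (CPM) of PTPRK in each of 27 libraries, by group, with colour and shape for the replicate number, the mean as a line and the SD as bars; the dotted line separates the 5 controls. The 3 libraries of lnc-RTN4R-1 GapmeR1 lie between 101 and 120.3 CPM, and all others at 218.5 CPM or above.

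Against the 5 controls, PTPRK was 2.79-fold lower with lnc-RTN4R-1 GapmeR1 (log2 fold change -1.48, SE 0.101, edgeR adjusted p-value 5.26e-06). With GapmeR2 the log2 fold change was -0.30 (SE 0.104, adjusted p-value 0.113). The GapmeRs differed from each other, with a log2 fold change of -1.18 for GapmeR1 against GapmeR2 (SE 0.103, adjusted p-value 0.000203). Taken as 1 group of 6 libraries, both GapmeRs spanned 101 to 272 CPM with a median of 169 CPM, and overlapped the controls. The pooled log2 fold change was -0.77 (SE 0.276), with an adjusted p-value of 0.337.

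Libraries with the same replicate number moved together on average. Compared with the controls of its own replicate number, PTPRK was lower by 0.22, 0.29 and 0.26 on the log2 scale with GapmeR2. The differences with GapmeR1 were -1.40, -1.53 and -1.38. For replicate 3 the only control was NTC. Against NTC of the same replicate number alone, the differences with GapmeR2 were -0.13, -0.18 and -0.26. Those with GapmeR1 were -1.305, -1.42 and -1.38. With the replicate block, the GapmeR2 change was -0.26 (SE 0.055) and passed the test, with an adjusted p-value of 0.00096. Without the block, leaving out each library in turn gave -0.36 to -0.21, with edgeR adjusted p-values of 0.0199 to 0.326. The lowest of these p-values came without NTC replicate 3, the lowest control, where the change was -0.35. With NTC alone as controls, PTPRK with GapmeR2 did not pass.

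PTPRK stayed near the NTC level with the GapmeRs against the other 3 lncRNAs. Its values were 290.4 and 281 CPM with lnc-NKX2-3-1 GapmeR1, and 298, 296 and 265 CPM with GapmeR2. GapmeR1 against lnc-TIMM21-5 left PTPRK at 314, 303 and 253 CPM, and GapmeR2 at 283, 304 and 236 CPM. GapmeR1 against lnc-ASTN1-1 left it at 297, 288 and 238 CPM, and GapmeR2 at 301 and 263 CPM. All these values lay below both medium libraries, and most lay within the range of NTC. No group here passed the test, with log2 fold changes from -0.19 to -0.11. In order of group means, medium (348.5 CPM) came first without overlap with the next group, followed by 8 groups from 290.3 to 254 CPM, each overlapping its neighbour, and by lnc-RTN4R-1 GapmeR1 at 112 CPM, which overlapped none.

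Medium and NTC differed for PTPRK in that both medium libraries lay above all 3 NTC libraries. The log2 fold change, NTC against medium, was -0.27 (SE 0.0987) with an adjusted p-value of 0.923. With the replicate block it was -0.20, with an adjusted p-value of 0.000262. The same block brought the change with lnc-NKX2-3-1 GapmeR1 to -0.18 with an adjusted p-value of 0.0300. For NTC against medium, the blocked fit held only 5 libraries, and NTC replicate 3 had no medium library of its number. In 1 fit of all libraries with the block, 0 members were called for NTC against medium, beside 0.0676% of all genes.

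PTPRM, the closest relative of PTPRK here and also a homophilic adhesion molecule, showed the reverse pattern between the GapmeRs against lnc-RTN4R-1. PTPRM (ENSG00000173482, chromosome 18, 7566782 to 8406861, plus strand) stood at 26.1 and 23.2 CPM in medium and 20.5, 20.04 and 21.4 CPM with NTC. With lnc-RTN4R-1 GapmeR1 it was at 24.9, 22.6 and 24.1 CPM, inside the range of the controls. With GapmeR2 it was at 8.46, 7.83 and 9.05 CPM, below every control. A similar low level was seen with lnc-NKX2-3-1 GapmeR1, at 7.01 and 6.63 CPM, while GapmeR2 against that lncRNA left 18.9, 21.5 and 20.5 CPM.

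In edgeR, PTPRM was 2.63-fold lower than the controls with lnc-RTN4R-1 GapmeR2 (log2 fold change -1.40, SE 0.114, adjusted p-value 4.67e-06). With lnc-NKX2-3-1 GapmeR1 it was 3.24-fold lower (log2 fold change -1.70, SE 0.134, adjusted p-value 2.33e-06). With lnc-RTN4R-1 GapmeR1 the log2 fold change was 0.10 (interval -0.09 to 0.29). The direct comparison for lnc-RTN4R-1 gave a PTPRM difference of 1.5, GapmeR1 minus GapmeR2 (SE 0.102, adjusted p-value 5.15e-05), and that for lnc-NKX2-3-1 gave -1.56 (SE 0.131, adjusted p-value 5.44e-05).

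PTPRG, whose outer part resembles a carbonic anhydrase, followed PTPRM. PTPRG (ENSG00000144724, chromosome 3, 61561569 to 62297609, plus strand) was at 45.8 and 45.8 CPM in medium and 41.01, 46.8 and 41.3 CPM with NTC. With lnc-RTN4R-1 GapmeR2 it was at 14.2, 13.7 and 13.02 CPM, and with lnc-NKX2-3-1 GapmeR1 at 13.1 and 12.7 CPM. These 5 libraries were the lowest of the 27 for both PTPRG and PTPRM.

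**Figure D2:**
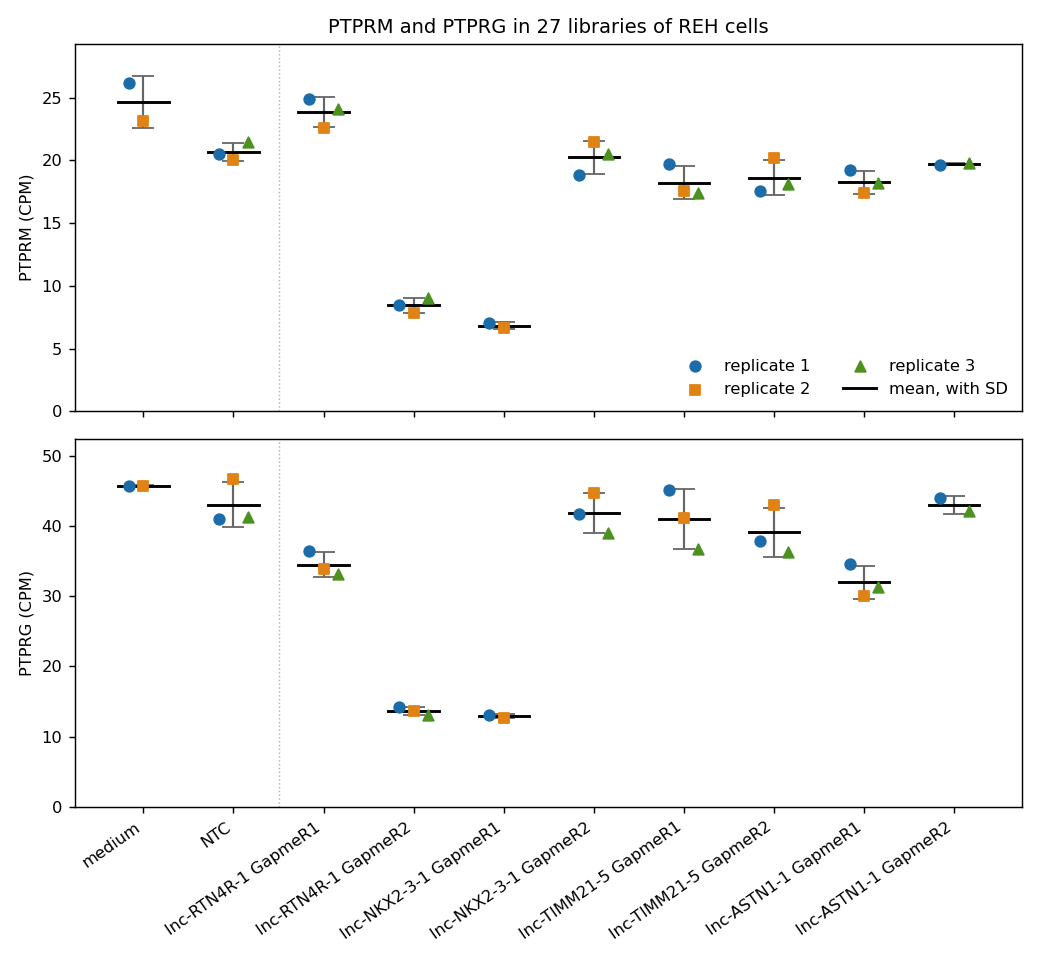
Level (CPM) of PTPRM (top) and PTPRG (bottom) in each of 27 libraries by group, with symbols for the replicate number, means as lines and SD as bars. Under lnc-RTN4R-1 GapmeR2 and lnc-NKX2-3-1 GapmeR1, PTPRM lies at 6.63 to 9.05 CPM and PTPRG at 12.7 to 14.2 CPM, below all other groups.

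PTPRG was 3.22-fold lower with lnc-RTN4R-1 GapmeR2 (log2 fold change -1.69, SE 0.0837, adjusted p-value 4.34e-08) and 3.39-fold lower with lnc-NKX2-3-1 GapmeR1 (log2 fold change -1.76, SE 0.0972, adjusted p-value 1.20e-07). Direct comparisons gave 1.34 for lnc-RTN4R-1 (SE 0.0869, adjusted p-value 3.87e-05) and -1.69 for lnc-NKX2-3-1 (SE 0.110, adjusted p-value 1.32e-05), GapmeR1 minus GapmeR2. The levels of PTPRG with lnc-RTN4R-1 GapmeR2 and lnc-NKX2-3-1 GapmeR1 overlapped each other.

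Smaller decreases of PTPRG were found with GapmeR1 against lnc-RTN4R-1 and with GapmeR1 against lnc-ASTN1-1. With lnc-RTN4R-1 GapmeR1, PTPRG was at 36.5, 33.9 and 33.2 CPM (log2 fold change -0.35, SE 0.0717, adjusted p-value 0.0294), and with lnc-ASTN1-1 GapmeR1 at 34.6, 30.1 and 31.3 CPM (log2 fold change -0.46, SE 0.0768, adjusted p-value 0.0117). All 6 libraries lay below the lowest control. The call for lnc-RTN4R-1 GapmeR1 was lost without medium replicate 1 or 2, NTC replicate 2 or any of the GapmeR1 libraries (adjusted p-values 0.0682 to 0.158), and that for lnc-ASTN1-1 GapmeR1 without NTC replicate 2 or GapmeR1 replicate 2 or 3 (0.0509 to 0.111). In the direct comparison for lnc-ASTN1-1, PTPRG differed by -0.43 without passing the test (adjusted p-value 0.383), and by -0.39 with the replicate block (adjusted p-value 0.000299).

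With lnc-TIMM21-5 GapmeRs, PTPRM was at 19.7, 17.5 and 17.4 CPM for GapmeR1 and 17.5, 20.2 and 18.1 CPM for GapmeR2, with 5 of these 6 libraries below the lowest control. These differences did not pass the test without the block. With the replicate block, PTPRM was lower with lnc-TIMM21-5 GapmeR1 (log2 fold change -0.28, adjusted p-value 0.0397) and with both lnc-TIMM21-5 GapmeRs pooled (-0.26, adjusted p-value 0.0253). The same held with lnc-ASTN1-1 GapmeR1 (-0.28, adjusted p-value 0.0412), where PTPRM was at 19.2, 17.4 and 18.2 CPM. Both medium libraries also lay above all 3 NTC libraries for PTPRM. NTC against medium gave -0.28 to -0.25 over the alternatives, without a call. Against NTC of the same replicate number alone, PTPRM differed by -0.05, -0.19 and -0.30 with lnc-TIMM21-5 GapmeR1. With its GapmeR2 the differences were -0.22, 0.01 and -0.24, and with lnc-ASTN1-1 GapmeR1 -0.09, -0.21 and -0.24.

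PTPRC, or CD45, moved little. Its levels were 109.9 and 124 CPM in medium and 129, 128 and 125 CPM with NTC. All 3 libraries of lnc-RTN4R-1 GapmeR1, at 144, 148 and 152 CPM, were above the controls, as were those of lnc-ASTN1-1 GapmeR1, at 139, 151 and 138 CPM. Both libraries of lnc-NKX2-3-1 GapmeR1, at 97.5 and 109 CPM, were below them. None of these passed the test without the block (log2 fold changes 0.27, 0.21 and -0.25, adjusted p-values 0.0557, 0.351 and 0.0553). With the replicate block all 3 did (0.26, 0.21 and -0.24, adjusted p-values 3.11e-05, 0.00523 and 0.000829). DESeq2 called PTPRC with lnc-RTN4R-1 GapmeR1 and lnc-NKX2-3-1 GapmeR1.

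PTPRF, a phosphatase of the LAR type known from cell adhesion and axon growth, was lower with lnc-NKX2-3-1 GapmeR1 alone among the single GapmeRs. It was at 124 and 120.1 CPM there, against 149 and 166 CPM in medium and 137, 156 and 162 CPM with NTC. The log2 fold change was -0.33 (SE 0.0832, adjusted p-value 0.0157). Against GapmeR2 of the same lncRNA (144, 157 and 148 CPM), PTPRF differed by -0.29 (SE 0.0818, adjusted p-value 0.0421). Without either of the lnc-NKX2-3-1 GapmeR1 libraries the comparison with the controls lost its call (adjusted p-values 0.0992 and 0.159). The direct call was lost without any 1 of 4 libraries, replicates 1 and 2 of each GapmeR (adjusted p-values 0.0855 to 0.334).

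PTPRA and PTPRE, close relatives with short outer parts that act on SRC family kinases, and PTPRJ, a phosphatase of growth factor and immune receptors, passed no test without the block. PTPRA was the steadiest member, between 115 and 140.2 CPM over the 27 libraries with a coefficient of variation of 4.39%. PTPRE lay between 216 and 299.8 CPM and PTPRJ between 11.8 and 19.5 CPM. With the replicate block, PTPRJ (log2 fold change 0.38, adjusted p-value 0.00242) and PTPRE (0.13, adjusted p-value 0.0306) were higher with lnc-NKX2-3-1 GapmeR1. PTPRS, the other phosphatase of the LAR type, had 0 to 3 counts per library and was not tested. A count of 0 allows up to 0.132 to 0.205 CPM, counting error only.

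**Figure D3:**
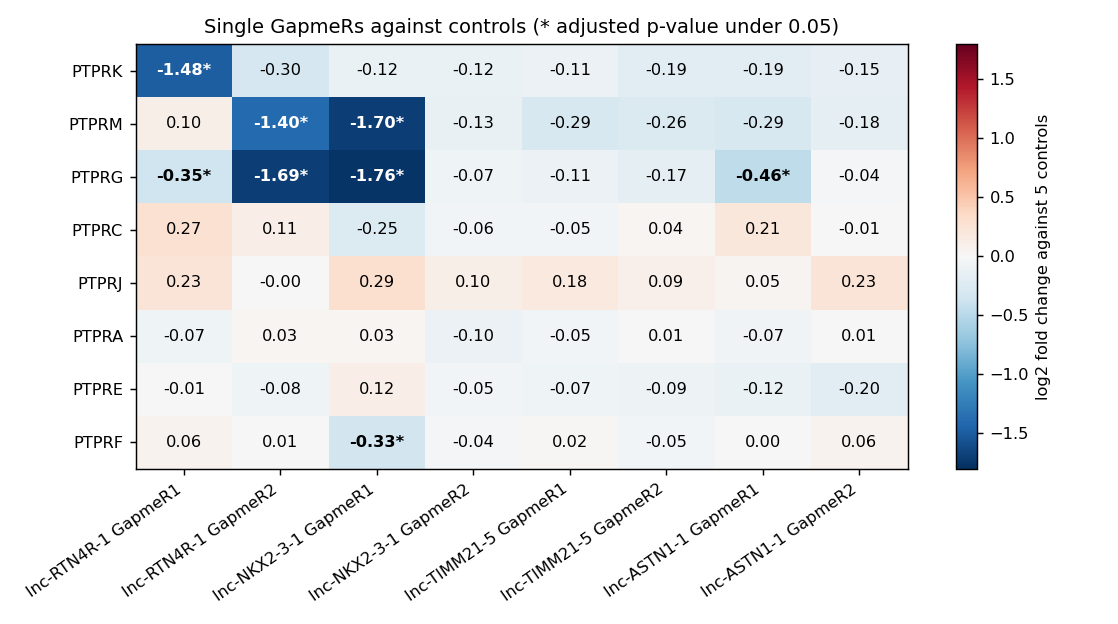
Log2 fold changes of 8 members (rows) against the 5 controls for each of 8 GapmeRs (columns), from blue for lower to red for higher, with an asterisk where the edgeR adjusted p-value was under 0.05. The 5 large decreases are those of PTPRK with lnc-RTN4R-1 GapmeR1, and of PTPRM and PTPRG with lnc-RTN4R-1 GapmeR2 and lnc-NKX2-3-1 GapmeR1.

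Over the single GapmeRs, 8 of the 9 members passed the low-count filter in every comparison, and 8 of their 64 tests passed, all lower. These comparisons share the same 5 controls. With lnc-RTN4R-1 GapmeR1, 2 members were called, where 1.59% of all genes were called and 0.579% called lower. With lnc-RTN4R-1 GapmeR2, 2 members were called beside 6.62% of all genes (3.85% lower), and with lnc-NKX2-3-1 GapmeR1, 3 members beside 17.6% (10.2% lower). With lnc-ASTN1-1 GapmeR1 it was 1 member beside 0.718% (0.678% lower). With the other 4 GapmeRs, 0 members were called, where 0% of genes were for lnc-NKX2-3-1 GapmeR2, 0.013% with lnc-ASTN1-1 GapmeR2, and 0.079% and 0.0593% with GapmeR1 and GapmeR2 of lnc-TIMM21-5. Members with an unadjusted p under 0.05 numbered 0 with lnc-NKX2-3-1 GapmeR2, 1 with lnc-ASTN1-1 GapmeR2, 1 with lnc-TIMM21-5 GapmeR1 and 2 with its GapmeR2, and DESeq2 called 0.

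Between GapmeRs of the same lncRNA, 3 members passed for lnc-RTN4R-1 (PTPRK, PTPRM and PTPRG) against 5.92% of all genes, and 3 for lnc-NKX2-3-1 (PTPRM, PTPRG and PTPRF) against 13% of all genes. In edgeR 0 members passed for lnc-TIMM21-5 and lnc-ASTN1-1 (0.0784% and 0.146% of all genes), with 0 and 2 at an unadjusted p under 0.05 and 0 called by DESeq2. When both GapmeRs of a lncRNA were pooled, edgeR called 0 members in all 4 comparisons, where the share of all genes called was 0.476% (lnc-RTN4R-1), 0% (lnc-NKX2-3-1), 0.00665% (lnc-TIMM21-5) and 0.0136% (lnc-ASTN1-1). The members with an unadjusted p under 0.05 numbered 3, 0, 1 and 3 in that order, and DESeq2 called 0. NTC against medium also gave 0 members by both tools, with 0% of genes called by edgeR and 1 member at an unadjusted p under 0.05.

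The replicate block raised the counts of members called, and those of all genes as well. For lnc-RTN4R-1 it called 3 members by GapmeR1 (9.39% of all genes) and 3 by GapmeR2 (22.4%), and for lnc-NKX2-3-1 it called 7 with GapmeR1 (36.4%) and 0 with GapmeR2 (2.72%). For lnc-TIMM21-5 it called 1 member with GapmeR1 (2.79%) and 0 with GapmeR2 (0.33%), and for lnc-ASTN1-1 3 with GapmeR1 (4.86%) and 0 with GapmeR2 (0.215%). Between GapmeRs, 5 members passed for lnc-RTN4R-1 (30.9% of all genes), 6 for lnc-NKX2-3-1 (41.8%), 0 for lnc-TIMM21-5 (0.503%) and 2 for lnc-ASTN1-1 (4.29%). Among the pooled comparisons only PTPRM with lnc-TIMM21-5 passed (1.32% of all genes), and the other 3 gave 0 members (1.96% for lnc-RTN4R-1, 0.0135% for lnc-NKX2-3-1, 0.881% for lnc-ASTN1-1). NTC against medium gave 1 member, PTPRK, beside 1.53%.

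Levels between members were compared per kilobase of exon. PTPRK, PTPRA and PTPRE had the highest levels in the controls, at 35.01 ± 4.17, 33.8 ± 0.758 and 23.9 ± 1.46 CPM per kb (SD, n = 5). PTPRF followed at 14.4 ± 1.09 and PTPRC at 7.98 ± 0.499 CPM per kb. PTPRG, PTPRM and PTPRJ were at 3.02 ± 0.187, 2.25 ± 0.250 and 1.41 ± 0.239 CPM per kb. With lnc-RTN4R-1 GapmeR1, PTPRK stood at 12.5 ± 1.13 CPM per kb (SD, n = 3), below PTPRF in those libraries (14.9 ± 0.616 CPM per kb), whereas in the controls it was above PTPRF. PTPRA and PTPRK in the controls overlapped.

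**Figure D4:**
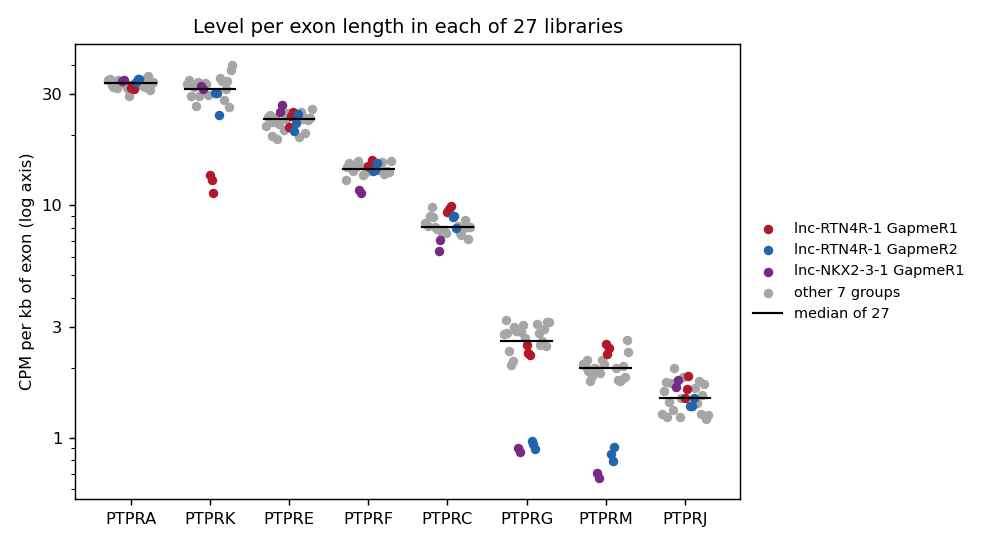
Level per kilobase of exon (CPM per kb, log axis) of 8 members in each of 27 libraries, with medians as lines and 3 GapmeRs in colour; PTPRS is left out, since many of its values are 0. PTPRK under lnc-RTN4R-1 GapmeR1 lies at 11.3 to 13.5 CPM per kb, and PTPRM and PTPRG under the other coloured GapmeRs all lie under 1 CPM per kb.

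The members that fell most were also those with the longest gene bodies. PTPRM spans 840.1 kb, PTPRG 736 kb and PTPRK 552 kb, and the other 6 members span 98.5 to 190.4 kb. With the members left out, 43.2% of tested genes with a body of at least 500 kb were called lower with lnc-RTN4R-1 GapmeR2 and 57.9% with lnc-NKX2-3-1 GapmeR1, against 3.44% and 9.73% of shorter genes. With lnc-RTN4R-1 GapmeR1, 6 of 149 long and 78 of 14828 shorter genes were called lower, and with lnc-ASTN1-1 GapmeR1 8.9% and 0.586%. The part of gene length in the changes of PTPRK, PTPRM and PTPRG was not tested.

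**Figure D5:**
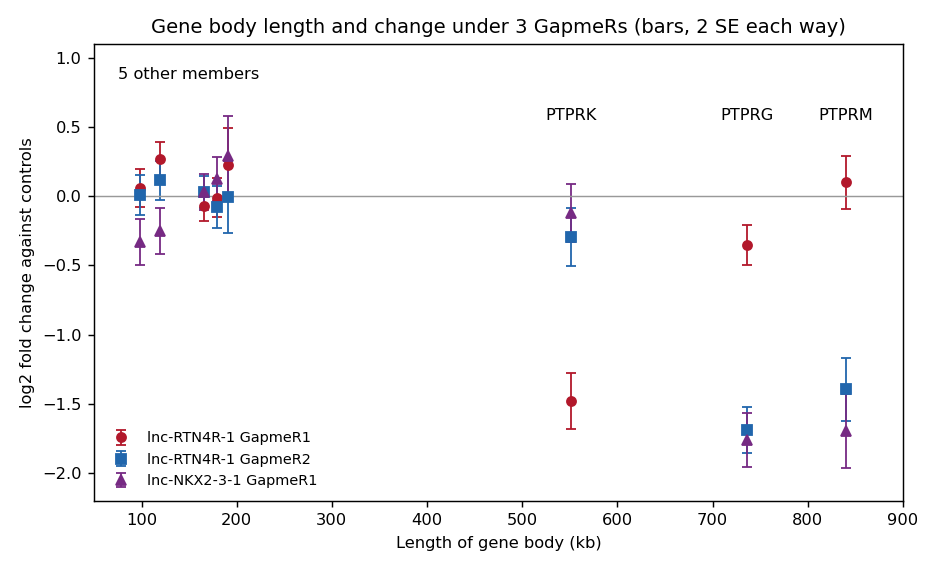
Log2 fold change against the controls (vertical axis, bars of 2 SE each way) of 8 members by length of the gene body in kb (horizontal axis), for 3 GapmeRs. The 5 members of 98.5 to 190.4 kb lie between -0.33 and 0.29, and the values under -1 belong to PTPRK, PTPRG and PTPRM.

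Places that could pair with a GapmeR were also more frequent in long genes. A place as close as that of PTPRK for lnc-RTN4R-1 GapmeR1 (at most 2 mismatches, at least 13 paired bases in a row) occurred in 0.175% of all 16024 genes searched and in 4.97% of those of at least 500 kb. These limits were taken from the members' own places after their changes were known. The members and LINC02891 are therefore left out of the shares called lower that follow, which are descriptions. Shares of genes that hold a place include them. Of 24 other tested genes with such a place, 5 were called lower with this GapmeR (20.8%), beside 0.528% of genes without one, and among long genes 1 of 6 beside 3.5%. For lnc-RTN4R-1 GapmeR2, a place as close as that of PTPRM was held by 0.225% of all genes searched, and of 33 other tested genes with one 54.5% were lower, beside 3.72% without. Among long genes, 1 of 3 with such a place and 43.4% of 143 without were lower. PTPRG held no such place, and a place as close as its own (3 mismatches, run of 12) was found in 26.7% of long genes, where 47.2% with and 41.8% without one were lower. For lnc-NKX2-3-1 GapmeR1, with the limits of the PTPRG place, these shares were 67.3% and 53.4%. For lnc-ASTN1-1 GapmeR1, where the best place of PTPRG had 3 mismatches and a run of 10, they were 13.5% of 89 and 1.75% of 57 long genes.

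Places were also found for GapmeRs with which the member was not called. For lnc-NKX2-3-1 GapmeR2, PTPRG held a place with 3 mismatches and 13 paired bases in a row, and PTPRG was at 41.8, 44.7 and 39.1 CPM there, with a fitted difference from the controls of -0.07 (log2 scale, adjusted p-value 0.913).

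Over all 27 libraries, the log2 levels of PTPRM and PTPRG had a Pearson correlation of 0.94. Without the 5 libraries of lnc-RTN4R-1 GapmeR2 and lnc-NKX2-3-1 GapmeR1 it was 0.26 over 22. The genes most like PTPRK over the 27 libraries were SRPK1, a kinase of splicing factors (0.96), RBM28, a protein of ribosome assembly (0.94), MAP3K7, the kinase TAK1 (0.93), PPA2, a mitochondrial pyrophosphatase (0.92), and ZNHIT6 (0.91), with Spearman's rho of 0.43 to 0.71. Most opposite were SYPL1 (-0.91), RAB11FIP4 (-0.88) and BSPRY (-0.88). Without the 3 libraries of lnc-RTN4R-1 GapmeR1 the correlations of the first 5 genes with PTPRK were 0.24 to 0.58 over 24 libraries. These libraries share cell line, replicate numbers and depth range.

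Several members differed by replicate number. In all 7 groups with replicates 1, 2 and 3, PTPRK was lower in replicate 3, by a median of 0.29 on the log2 scale. PTPRG was lower in 7 of 7 as well (median -0.10). The lnc-ASTN1-1 GapmeR2 group, with replicates 1 and 3 only, was left out. PTPRJ and PTPRE were higher in replicate 3 in 7 of 7 groups (medians 0.29 and 0.14). Within replicates 1 and 2 only, the PTPRK change with lnc-RTN4R-1 GapmeR1 remained past the threshold, as it did in all other fits tried, with log2 fold changes from -1.64 to -1.37.

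Genes on the opposite strand could add reads to a member if strand were ignored. Of 17 such genes annotated within 7 of the members, 1 exceeded 1 CPM on average, the pseudogene RPL10AP6 in PTPRG (1.06 CPM). With counts taken regardless of strand, all 8 single GapmeR calls of members stayed.

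Of 11 other receptor-type phosphatases, 4 were tested with lnc-RTN4R-1 GapmeR2, and 2 passed, beside 6.62% of all genes. PTPRD, a phosphatase of the LAR type with a body of 2299 kb, averaged 4.86 ± 1.18 CPM (SD, n = 3) beside 13.2 ± 1.07 CPM in the controls (SD, n = 5), and so fell by 1.44 on the log2 scale (adjusted p-value 4.04e-05). PTPRB, the phosphatase of endothelial cells, rose from 0.944 ± 0.261 to 3.30 ± 0.387 CPM (log2 fold change 1.8, adjusted p-value 0.000196). With lnc-RTN4R-1 GapmeR1 none of 3 tested passed in edgeR (0 at an unadjusted p under 0.05, 0 by DESeq2), and with lnc-NKX2-3-1 GapmeR1 1 of 4 passed, again PTPRD (6.27 ± 0.441 CPM, n = 2, log2 fold change -1.07), beside 17.6% of all genes. The replicate block called 0 of 3 with lnc-RTN4R-1 GapmeR1, and 3 and 2 of 4 with lnc-RTN4R-1 GapmeR2 and lnc-NKX2-3-1 GapmeR1, beside 22.4% and 36.4% of all genes. Their median log2 fold changes were 0.11, -0.26 and -0.32 for lnc-RTN4R-1 GapmeR1, GapmeR2 and lnc-NKX2-3-1 GapmeR1, beside 0.00, 0.01 and 0.00 over all genes tested.

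Of 17 non-receptor tyrosine phosphatases, 14 were tested. In edgeR none passed with lnc-RTN4R-1 GapmeR1, beside 1.59% of all genes. There 4 were at an unadjusted p under 0.05, and 3 were called by DESeq2, beside 2.46% of all genes. With GapmeR2 1 of 14 passed in edgeR, beside 6.62% of all genes. This was PTPN7, a phosphatase of MAP kinases in blood cells (30.9 ± 8.26 against 16.3 ± 4.8 CPM, log2 fold change 0.93, adjusted p-value 0.0319). With lnc-NKX2-3-1 GapmeR1, PTPN7 rose and PTPN18, PTPN13, PTPN14 and PTPN3 fell, genes named here after their values were seen. These 5 of 14 stand beside 17.6% of all genes called. Under the replicate block, 6 of 14 passed with lnc-RTN4R-1 GapmeR1 (5 higher, 1 lower, beside 9.39% of all genes), 6 with GapmeR2 (3 higher, 3 lower, beside 22.4%) and 8 with lnc-NKX2-3-1 GapmeR1 (2 higher, 6 lower, beside 36.4%).

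Among 17 kinases and partners linked to CD45, 14 were tested. With lnc-RTN4R-1 GapmeR1, 3 rose and 1 fell, beside 1.59% of all genes called. FYN, a SRC family kinase, fell from 88.9 ± 9.04 to 37.6 ± 5.93 CPM (log2 fold change -1.24, adjusted p-value 5.62e-05), and LCK, another, rose from 9.68 ± 1.94 to 20.0 ± 3.38 CPM (1.05, adjusted p-value 0.00318). CD79A, a chain of the B-cell receptor, rose by 0.33 (adjusted p-value 0.0150). CSK, which restrains SRC family kinases and lay outside the naming rule, rose by 0.47 (adjusted p-value 0.0311). CSK was also higher with NTC than in medium (115 ± 10.7 against 92.7 ± 1.71 CPM). That difference was 0.25 with the replicate block (edgeR adjusted p-value 0.000286, beside 1.53% of all genes called), and was not called without the block. With GapmeR2 1 of 14 passed, beside 6.62% of all genes, LGALS1, a galectin that binds CD45 (0.84, adjusted p-value 0.0194), and FYN differed between the GapmeRs by -1.28 (adjusted p-value 0.000866). With lnc-NKX2-3-1 GapmeR1, FYN, PAG1 and CD22 fell and CSK rose, named after their values were seen, beside 17.6% of all genes. Under the replicate block, 7 of 14 passed with lnc-RTN4R-1 GapmeR1 (6 higher, 1 lower, beside 9.39% of all genes), 4 with GapmeR2 (3 higher, 1 lower, beside 22.4%) and 6 with lnc-NKX2-3-1 GapmeR1 (1 higher, 5 lower, beside 36.4%).

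PTPRK is cut by furin, ADAM10 and gamma-secretase, and acts on EGFR and junction proteins. Of 18 such partners, substrates and processing genes, 14 were tested. EGFR and CDH2 had 0 counts in every library. With lnc-RTN4R-1 GapmeR1, where PTPRK was lowest, edgeR called none of the 14 (0 at an unadjusted p under 0.05, 0 by DESeq2), beside 1.59% of all genes, with a median log2 fold change of -0.01. With lnc-RTN4R-1 GapmeR2, PARD3, a polarity protein with a body of 706 kb, the 1 gene called beside 6.62% of all genes, fell from 109.6 ± 3.79 to 68.2 ± 3.66 CPM (log2 fold change -0.68, adjusted p-value 2.07e-05). PARD3 also fell with lnc-NKX2-3-1 GapmeR1 (-0.84) and lnc-ASTN1-1 GapmeR1 (-0.47). With lnc-NKX2-3-1 GapmeR1 PSEN2 fell and CTNNB1 rose, named after their values were seen. The genes called numbered 3 with lnc-NKX2-3-1 GapmeR1, beside 17.6% of all genes, and 1 with lnc-ASTN1-1 GapmeR1, beside 0.718%. The replicate block called 1 of 14 with lnc-RTN4R-1 GapmeR1 (9.39% of all genes), 7 with GapmeR2 (22.4%) and 7 with lnc-NKX2-3-1 GapmeR1 (36.4%). In the remaining comparisons with the controls, edgeR without the block called no gene of these 4 lists, beside 0 to 0.476% of all genes. The same held between GapmeRs of lnc-TIMM21-5 and of lnc-ASTN1-1 (0.0784% and 0.146% of all genes). DESeq2, also without the block, called 1 non-receptor phosphatase and 2 CD45-linked genes with lnc-RTN4R-1 GapmeRs pooled (1.7% of all genes). It also called 1 PTPRK partner with lnc-TIMM21-5 GapmeR2 (0.112%) and 1 between the lnc-ASTN1-1 GapmeRs (0.418%).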

How the data were processed

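The authors aligned the reads to hg38 with STAR and deposited raw gene counts for each library, regardless of strand and for each strand. The annotation release is not given in the sources used here. The labels describe stranded RNA depleted of ribosomal RNA, whereas the methods describe a poly-A kit. The strand with 95.15 to 95.41% of stranded counts was used. Rows naming no gene held 23 to 28.52% and were left out. Of the gene rows, 56434 of 60619 were found in GENCODE 44.

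Each of 17 comparisons was fitted over all genes passing the low-count filter (minimum count 10, total 15) in edgeR 4.0.16 (quasi-likelihood, robust, TMM), with Benjamini-Hochberg adjustment and a threshold of 0.05. Printed intervals are 2 SE each way. CPM used TMM factors over 27 libraries, and log2 CPM a prior count of 2. DESeq2 1.42.0, other scaling, filters, strands, controls and fits, and leaving out each library were tried. In simulated counts for lnc-RTN4R-1 comparisons, 200 genes were changed by 1 on the log2 scale. Of these 84 to 86% were recovered, and 4.49 to 7.53% of calls were false. The simulated libraries were drawn independently, without any likeness by replicate number. The replicate number was used to pair the cultures, since the methods give separate days for the replicates. That equal numbers share a day is an assumption. Deviations from group means correlated at 0.263 on average for 109 same-number pairs. For 218 others the average was -0.130, a value largely fixed by centring each group on its mean. Depth limits low counts such as those of PTPRS. P-values measure the spread between these cultures only.

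GapmeR sequences come from the study's list of oligonucleotides. Named genes were the 9 members, the target, opposite-strand genes over 1 CPM, the 5 genes most like and 3 most unlike PTPRK, and up to 3 called genes per list with the smallest p for each lnc-RTN4R-1 GapmeR. Members and lists were chosen with earlier results of these data known.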

Additional observations from a re-analysis of the deposited data

Results flagged for a closer look

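In 6 cases the GapmeRs against the same lncRNA differed from each other for a member, by the direct edgeR test. For lnc-RTN4R-1, the log2 fold change of GapmeR1 against GapmeR2 was -1.18 for PTPRK, 1.5 for PTPRM and 1.34 for PTPRG. For lnc-NKX2-3-1 it was -1.56 for PTPRM, -1.69 for PTPRG and -0.29 for PTPRF.

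One library stood apart within its group. Among the 5 controls, medium replicate 1 had the lowest PTPRC level, 109.9 CPM, with a gap to the other 4 that was large for their range. Of 40 sets of samples examined in this way, chance alone gives about 5%.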

How the results depend on the processing

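The lowering of PTPRK with lnc-RTN4R-1 GapmeR1, and its difference from GapmeR2, kept direction and call under every alternative tried. Leaving out each library gave log2 fold changes of -1.54 to -1.41 and -1.28 to -1.11. For GapmeR2 the range was -0.36 to -0.21, and for the pooled GapmeRs -0.92 to -0.65. PTPRK with GapmeR2 passed the test with no low-count filter (-0.29), the replicate block (-0.26), 1 fit of all libraries with the replicate block (-0.26), replicates 1 and 2 only (-0.26) and medium alone as controls (-0.45). With NTC alone as controls PTPRK with GapmeR2 did not pass, and over all alternatives its change ranged from -0.45 to -0.19. The pooled change passed in 1 fit of all libraries (-0.88) and there with the replicate block (-0.85). The last fit and replicates 1 and 2 only were added after seeing the data. PTPRM with lnc-RTN4R-1 GapmeR1 turned to -0.044 with medium alone. The causes were not tested.

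Members called in the pooled comparisons numbered 1 with the replicate block, 7 in 1 fit of all libraries (0.166 to 5.29% of all genes by comparison) and 16 in that fit with the replicate block (2.62 to 18.9%). In single GapmeR tests they were 17 and 21 with the block in separate fits and in 1 fit (there 0.135 to 35.8% of all genes), in direct tests 13 and 11 (0.375 to 33.4%), and for NTC against medium 1 in separate fits. Without each library the counts were 0 to 0 (pooled), 6 to 12 (single), 5 to 6 (direct) and 0 to 0 (NTC). PTPRG with lnc-RTN4R-1 GapmeR1 and with lnc-ASTN1-1 GapmeR1 was not called with NTC alone as controls (adjusted p-values 0.224 and 0.137), nor the direct PTPRF difference without a low-count filter (0.0505). PTPRK with lnc-NKX2-3-1 GapmeR1 was called with medium alone (-0.28). The groups hold 2 or 3 cultures of 1 cell line, and PTPRJ and PTPRM had the lowest counts of the tested members.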
